A study of Mus musculus with 3 samples.

Results

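Open chromatin was examined at 9 genes that mark leukocytes, Ptprc, Cd68, Adgre1, Csf1r, Itgam, Spi1, Cd3e, Laptm5 and Tyrobp, out of 22359 protein-coding genes of the mouse. They were chosen by name as immune cell genes. Every ATAC-seq peak overlapping a gene body or the 20 kb on each side of it was collected, and the peaks were counted as a sign of leukocyte chromatin. ATAC-seq uses a transposase that cuts accessible DNA, and a peak is an interval where such cuts pile up over the local background. The cells were dissociated with Accutase from islets of Langerhans of mice whose strain is labelled C5LBl6. There were 3 libraries: a wild type (WT) library, and 1 library each from mice studied 1 week and 5 weeks after Taf4 inactivation (Taf4 KO). Taf4 is a protein of TFIID, a complex that helps RNA polymerase II start transcription. In the KO mice both Taf4 alleles were floxed and were removed in the adult by tamoxifen through Ins1::Cre-ERT2, a Cre recombinase driven from an insulin gene, so the deletion was meant for beta cells, and the state of Taf4 in leukocytes was not measured here. The study describes its Taf4+/+ controls as carrying the same Cre and receiving tamoxifen, while the label of the WT library says only wild type. How many mice went into each library is not given in the sources used here. There was 1 library per group and no replicate, so no test between groups was possible and every difference below is a difference between libraries.

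Islets hold a small resident population of macrophages beside their endocrine, endothelial and stromal cells, and lymphocytes are sparse in a healthy islet. In macrophages the transcription factor PU.1, the product of Spi1, opens many enhancers and promoters together with RUNX, C/EBP and AP-1 factors, and myeloid promoters often lack CpG islands. In a bulk library a rare cell type adds only a small part of the signal, and fewer cells of a type cannot be told apart from less accessible chromatin in each cell.

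The peak lists differed in length, and every count below must be read with that. There were 60898 peaks in the WT list, and the KO lists were longer, with 150354 at 1 week (ratio 2.47) and 151725 at 5 weeks (ratio 2.49). Chromosome X held 12225 peaks in the 1 week list, against 1272 in WT and 1451 at 5 weeks; none of the 9 genes lies on it. Taf4 itself kept a promoter peak in all 3 lists, at fold 3.28, 2.17 and 2.94 in WT, 1 week and 5 weeks, which does not measure the deletion. Promoters of beta cell genes, which mark the labelled tissue, were open for 12 of 12 genes in WT and for 11 in each KO library.

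The sequences below, all in mm9 and 5' to 3', are 4 peak windows and a promoter to which the results return. Letters searched on both strands were the PU.1 site GAGGAAGT and its core GAGGAA (every full site holds a core), the RUNX site TGTGGTTT, the AP-1 site TGANTCA, the forkhead site TGTTTAC, the NeuroD E-box CAGATGG, the homeodomain core TAATTA and CTCF. Capitals mark these letters, except in the Spi1 last exon window, where they mark the 250 exon bases. The Ptprc window is intronic (chr1:140032966-140033265, plus strand, the gene being on the minus strand) and was called in all lists; it holds a PU.1 core at base 47 and RUNX letters at base 132. The Spi1 window (chr2:90955182-90955481, plus strand) covers the end of the last intron and coding bases of the last exon, which encode part of the ETS domain with which PU.1 binds DNA. The Tyrobp window lies between genes downstream of Tyrobp (chr7:31216792-31217091, plus strand) and holds CTCF letters at base 280, NeuroD E-boxes at bases 229 and 281, the latter inside the CTCF match, and AP-1 letters at base 247. The Itgam window (chr7:135262533-135262832, plus strand) is intronic and was a peak in WT alone; it is a tandem repeat, 88.4% identical to itself at a shift of 25 bases, and shows the AP-1 letters 10 times. The Ptprc promoter is the 250 bases before the start (chr1:140071883-140072132, minus strand), with a PU.1 core at base 93 and homeodomain letters at base 123.
Ptprc intron peak: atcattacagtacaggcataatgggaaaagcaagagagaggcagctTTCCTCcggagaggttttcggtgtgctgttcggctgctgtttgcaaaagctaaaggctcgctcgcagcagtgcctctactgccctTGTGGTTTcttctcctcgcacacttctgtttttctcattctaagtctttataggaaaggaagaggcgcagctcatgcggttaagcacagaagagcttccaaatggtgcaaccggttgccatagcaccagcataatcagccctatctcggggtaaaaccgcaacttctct
Spi1 last exon peak: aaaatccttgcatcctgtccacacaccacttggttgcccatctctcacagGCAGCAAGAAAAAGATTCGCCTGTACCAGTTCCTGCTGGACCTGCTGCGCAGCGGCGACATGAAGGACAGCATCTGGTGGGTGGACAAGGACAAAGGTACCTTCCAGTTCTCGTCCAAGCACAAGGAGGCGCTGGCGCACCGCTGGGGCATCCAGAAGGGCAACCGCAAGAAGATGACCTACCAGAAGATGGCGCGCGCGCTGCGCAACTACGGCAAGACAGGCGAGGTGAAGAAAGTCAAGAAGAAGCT
Tyrobp downstream peak: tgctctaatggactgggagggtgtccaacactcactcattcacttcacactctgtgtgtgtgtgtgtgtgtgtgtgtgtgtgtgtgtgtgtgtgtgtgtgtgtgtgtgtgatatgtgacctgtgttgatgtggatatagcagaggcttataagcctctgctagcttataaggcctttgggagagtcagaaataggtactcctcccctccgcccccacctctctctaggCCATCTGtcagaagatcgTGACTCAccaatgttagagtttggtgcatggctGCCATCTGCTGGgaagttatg
Itgam intron peak: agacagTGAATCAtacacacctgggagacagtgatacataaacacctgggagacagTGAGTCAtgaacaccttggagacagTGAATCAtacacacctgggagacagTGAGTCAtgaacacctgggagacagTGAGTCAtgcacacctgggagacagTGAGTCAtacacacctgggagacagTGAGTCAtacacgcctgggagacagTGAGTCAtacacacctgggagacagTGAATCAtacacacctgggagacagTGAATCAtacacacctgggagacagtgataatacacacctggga
Ptprc promoter: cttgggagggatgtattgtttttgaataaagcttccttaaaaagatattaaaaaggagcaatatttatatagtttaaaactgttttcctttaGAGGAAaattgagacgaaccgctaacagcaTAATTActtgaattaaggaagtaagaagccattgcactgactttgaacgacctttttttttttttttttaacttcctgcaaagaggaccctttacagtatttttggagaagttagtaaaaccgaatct

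Few of the 9 genes had a promoter peak in any library. A promoter peak was one overlapping the stretch between 1000 bp before and 100 bp after any protein-coding start of the gene. None of the 9 had one in WT, 2 had one at 1 week (Ptprc and Adgre1) and 2 at 5 weeks (Adgre1 and Csf1r). Cd68, Itgam, Spi1, Cd3e, Laptm5 and Tyrobp had none in any list. Over all protein-coding genes a promoter peak was present in 59% (WT), 55.9% (1 week) and 65.6% (5 weeks). Of the 9, 5 (Ptprc, Cd68, Adgre1, Csf1r and Tyrobp) belonged to the CpG-poorest of 3 equal groups of promoters. In that group the shares with a promoter peak were 11.2%, 18.7% and 21.6% in the same order. Of genes with no WT promoter peak, 13.3% gained one at 1 week and 18.9% at 5 weeks (11.8% and 13.2% within the CpG-poorest group). With 9 genes, 2 gains at either time lay near those backgrounds.

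The 4 promoter peaks were weak, in 3 genes. To compare lists, each peak is given the percentile of its -log10 q within its own list, where 0 is the weakest peak of that list. A percentile places a peak within its list and does not measure a change between lists, since the KO lists hold many more weak peaks. Ptprc encodes the phosphatase CD45, carried by all nucleated blood cells; its 1 week peak ran from 140072278 to 140072932, ending short of the start by 396 bp, with fold 2.06 over the local background, -log10 q 1.26 and percentile 5.77. Adgre1 encodes the macrophage marker F4/80 and was the only gene with a promoter peak in both KO lists. Its 1 week peak (57498125 to 57498383) had fold 2.34 at percentile 46.2, and its 5 week peak (57497656 to 57498950), which covers the start, had fold 2.15 at percentile 36.7. Csf1r, the receptor for the macrophage growth factor CSF1, had a 5 week peak across its start with fold 1.95, -log10 q 1.37 and percentile 13.2. All 4 fell out when peaks had to reach a -log10 q of 3, and also when the KO lists were shortened to the strongest 60898 peaks. Under a rule that asked for the midpoint of the peak in the window, Ptprc alone stayed at 1 week and Csf1r alone at 5 weeks.

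Around the genes, by contrast, many more peaks were called in the KO lists. In the 9 loci (gene bodies with flanks, 762 kb in all) 17 peaks were called in WT, and the KO lists had 50 at 1 week and 56 at 5 weeks, which is 2.94 and 3.29 times the WT number. These comprised the promoter peaks above, 6, 4 and 6 peaks at promoters of neighbouring genes, and distal peaks, meaning peaks at no protein-coding promoter. The distal peaks numbered 11 in WT, against 44 and 48 in the KO lists, or 1.44, 5.77 and 6.30 per 100 kb of locus. That is 4 and 4.36 times WT, beside 1.47 and 1.88 times for the distal density pooled over the loci of all protein-coding genes. The added peaks were unevenly spread: Ptprc and Adgre1, the longest genes, held 1 of the 11 distal peaks in WT, 35 of 44 (79.5%) at 1 week and 34 of 48 (70.8%) at 5 weeks. The other 7 loci together held 10, 9 and 14.

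**Figure D1:**
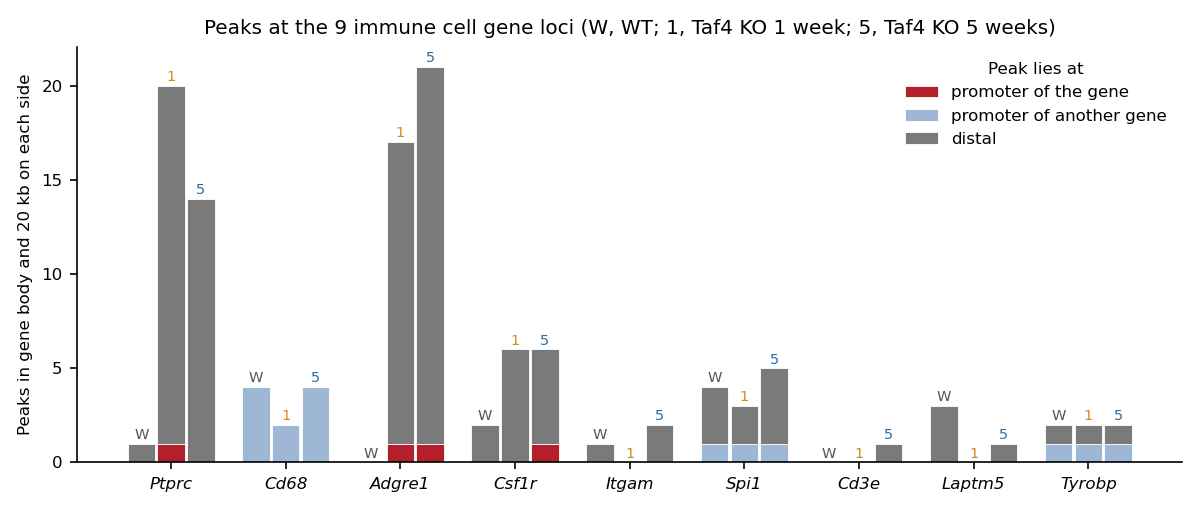
Number of peaks in the gene body and 20 kb on each side of each of the 9 genes, for WT (W), Taf4 KO at 1 week (1) and Taf4 KO at 5 weeks (5), stacked by whether the peak lies at the promoter of the gene, at the promoter of another gene or at neither. Ptprc and Adgre1 have 1 and 0 peaks in WT and 20 and 17 at 1 week, while the other loci hold 6 peaks or fewer in every library.

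Gene by gene, at least 1 distal peak was found at 6 of the 9 loci in the WT library, at 5 after 1 week and at 8 after 5 weeks. Over all genes those shares were 67.6%, 70.2% and 82.3%. At 1 week 3 genes had more distal peaks than in WT (Ptprc, Adgre1 and Csf1r) and 3 had fewer (Itgam, Spi1 and Laptm5), beside 33.9% of all genes with more and 38.4% with fewer. At 5 weeks 6 had more (Itgam, Spi1 and Cd3e in addition) and Laptm5 alone had fewer, beside 51.7% and 15.7%. Among the strongest 60898 peaks of each list by -log10 q, the 9 loci held 11 distal peaks in WT, 10 at 1 week and 8 at 5 weeks. The lowest -log10 q kept was 1.02, 2.39 and 3.04 in the same order, so this cut changes peak strength as well as number. Distal counts over all genes at this cut are not given, and the part of list length was not tested.

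Ptprc lies on chromosome 1 (139959438 to 140071882, minus strand) with no other protein-coding gene in its locus. Its distal peaks numbered 1 (WT), 19 (1 week) and 14 (5 weeks). Of these, 14 at 1 week and 10 at 5 weeks were centred in Ptprc introns. The intron peak printed above, 38.8 kb inside the gene, was called in all lists. It had folds of 2.74, 3.66 and 2.96 and percentiles of 16.9, 93.2 and 77.8 in WT, 1 week and 5 weeks. Most Ptprc peaks were weaker: 15 of the 19 at 1 week and 11 of the 14 at 5 weeks fell below the middle of their list, and 6 distal regions were shared by the KO lists but absent from WT. Of these 6, an intron peak 3.05 kb inside the gene had percentile 72.1 at 1 week and 55.6 at 5 weeks, and one 20.6 kb inside had 72.9 and 0.823.

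Adgre1 lies on chromosome 17 (57498109 to 57622952, plus strand) and likewise shares its locus with no other protein-coding gene. It had no peak in WT, where the nearest peak to any of its starts was 23.6 kb away. There were 16 distal peaks at 1 week and 20 at 5 weeks, spread along the gene without a dominant one. Their folds ran from 1.91 to 2.59 at 1 week and from 1.76 to 2.45 at 5 weeks. The best 1 week peak lay 2.05 kb inside the gene at percentile 63.7 and was not called at 5 weeks, and the best 5 week peak lay downstream of the gene with fold 2.45 and -log10 q 3.06. The KO lists shared 8 distal regions, beside 8 called at 1 week only and 12 called at 5 weeks only. Such counts over all genes are not given, here or for Ptprc.

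**Figure D2:**
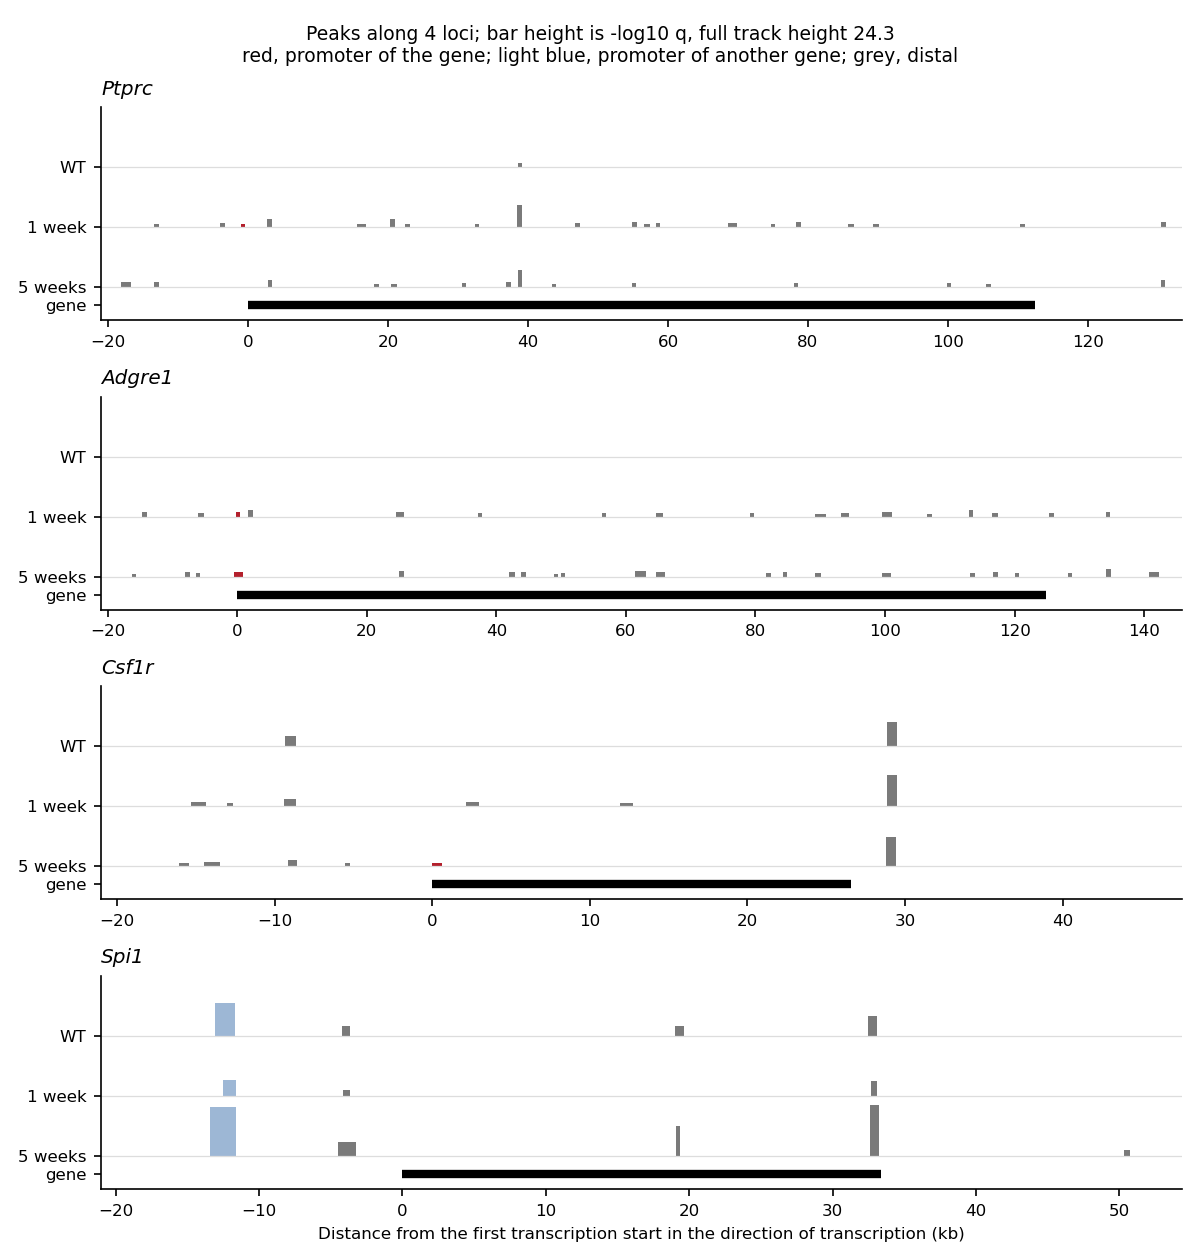
Peaks along the Ptprc, Adgre1, Csf1r and Spi1 loci in each library, against the distance from the start in kb; the bar height is the -log10 q on 1 scale for all panels, and the black bar is the gene. At Ptprc the peak near 38.8 kb is the tallest in both KO tracks and the other peaks are low, as are all Adgre1 peaks, while at Csf1r and Spi1 the tallest peak of each track has a counterpart in all 3 libraries.

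Csf1r (chromosome 18, plus strand) had 2, 6 and 5 distal peaks in WT, 1 week and 5 weeks. Both WT peaks came back in both KO lists. The first lies 9.0 kb upstream, between genes, at percentiles 55.9, 68.9 and 51.4 and folds 3.41, 2.62 and 2.23, and the second lies beyond the gene end in an intron of the neighbouring gene Hmgxb3, at percentiles 80.2, 97.0 and 88.3 and folds 4.35, 4.52 and 3.69. Inside Csf1r itself no peak was called in WT. At 1 week there were 2, at 2.54 kb and 12.4 kb from the start, with percentiles 37.9 and 6.70, and at 5 weeks only the start peak given above. The intron next to the Csf1r promoter is known to hold its macrophage enhancer, and the peak at 2.54 kb was not called at 5 weeks.

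Spi1 lies on chromosome 2 (90922547 to 90955913, plus strand). Its distal counts were 3, 2 and 4, and none of these peaks fell below the middle of its list. The window printed above, at the last exon, had folds 3.99, 3.43 and 5.00 and percentiles 74.3, 87.0 and 96.3 in WT, 1 week and 5 weeks. An intergenic peak 3.93 kb upstream of the start was also in all lists, at percentiles 52.2, 64.8 and 75.2 and folds 3.27, 2.61 and 2.93. An intron peak about 19.2 kb inside the gene was called in WT (percentile 54.5) and at 5 weeks (percentile 88.5) but not at 1 week. The promoter of the neighbour Slc39a13 was open in all lists, at percentiles 87.5, 89.1 and 95.7, while the Spi1 promoter had no peak in any of them.

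The remaining adhesion, signalling and receptor genes had few peaks. Itgam encodes the integrin CD11b of myeloid cells. It had a single distal peak in WT, the repeat window printed above, with fold 3.96 and percentile 64.7, none at 1 week, and 2 intron peaks at 5 weeks with percentiles 33.4 and 1.38. Laptm5, a lysosomal membrane protein of blood cells, had 3 distal peaks in WT, none at 1 week and 1 at 5 weeks, the last in an intron of the neighbour Matn1. The WT peak inside Laptm5 lay 4.74 kb from the start at percentile 41.1, and the other two were at percentiles 0.453 and 7.38. Tyrobp, the adaptor DAP12 of myeloid and NK receptors, had 1 distal peak in every list, the window printed above 18.1 kb downstream of its start. Its folds were 5.41, 2.88 and 4.09 and its percentiles 88.9, 75.9 and 90.7, and it lies beyond the promoter of Nfkbid, which was open in all lists.

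Cd68, a lysosomal glycoprotein of macrophages, had no distal peak in any list. Its compact locus holds 7 other protein-coding genes, and the peaks there, 4 in WT, 2 at 1 week and 4 at 5 weeks, were at the promoters of Sox15, Mpdu1, Eif4a1 and Senp3. The Mpdu1 and Eif4a1 peaks were in all lists, those of Sox15 and Senp3 in WT and at 5 weeks. Cd3e, the epsilon chain of the T cell receptor complex and the only T cell gene among the 9, had no peak in its locus in WT or at 1 week. At 5 weeks it had 1, in its last exon (chr9:44807346-44807625), with fold 2.85, -log10 q 5.13 and percentile 72.5.

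Over the 9 loci, 75 distal regions were found when overlapping peaks of the lists were merged. Of these, 23 were called at 1 week only, 26 at 5 weeks only, 15 in both KO lists, 4 in WT only, 1 in WT and at 5 weeks, and 6 in all lists. The same patterns over the loci of all genes are not given here. The KO lists were 2.47 and 2.49 times as long as the WT list. The regions of the KO lists alone therefore cannot be read as particular to these genes. The 6 regions in all lists were those of Ptprc, Csf1r (2), Spi1 (2) and Tyrobp described above. They ranked highest: their median percentiles were 65.1 (WT), 81.5 (1 week) and 83.0 (5 weeks). Regions of 1 list had medians of 24.2, 14.4 and 18.8. Of the distal peaks at the 9 loci, 75% at 1 week and 70.8% at 5 weeks fell below the middle of their own list, against 36.4% in WT. For distal peaks around all genes those shares were 45.2%, 44.4% and 60.1%. The top 10% of a list held 2 of the distal peaks at 1 week (Ptprc intron and Hmgxb3 intron), 2 at 5 weeks (Spi1 last exon and Tyrobp downstream) and none in WT, or 4.55%, 4.17% and 0%, against 11.4%, 8.58% and 3.60% of the distal peaks around all genes.

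**Figure D3:**
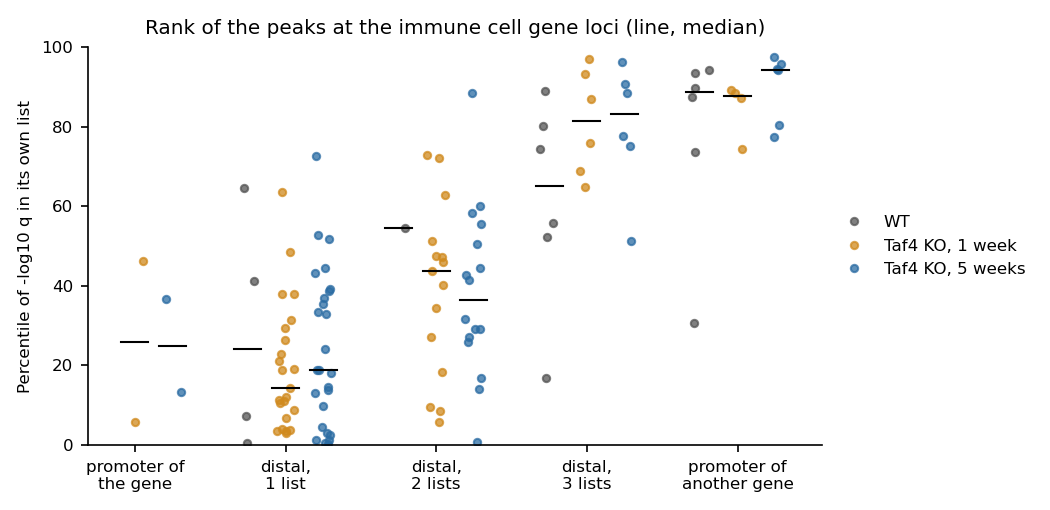
Percentile of the -log10 q of each peak at the 9 loci within its own list, by kind of peak and, for distal peaks, by the number of lists with an overlapping peak; points are peaks, coloured by library, and lines are medians. Distal peaks in all 3 lists and promoters of neighbouring genes lie high, with medians from 65.1 to 94.3, and distal peaks of 1 list lie low, with medians from 14.4 to 24.2.

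The distal density at a locus moved with the GC content of its surroundings over all genes. In the GC-poorest of 5 equal groups of genes, by the GC content of the surrounding 1 Mb, the pooled distal density was 7.54 times WT at 1 week and 5.27 times at 5 weeks. In the GC-richest group it was 0.438 and 1.18 times WT. Ptprc, at 39.3% GC, belongs to the GC-poorest group: its 0.656, 12.5 and 9.18 distal peaks per 100 kb stood beside group medians of 0, 5.77 and 3.15. Adgre1, at 44.3% GC, belongs to the middle group, where its 0, 9.71 and 12.1 stood beside medians of 2.35, 2.15 and 3.90. Csf1r, at 48.4% GC, is in the GC-richest group, and its 3.0, 9.01 and 7.51 stood beside 4.18, 1.5 and 4.53. These 3 genes were above the upper quartile of their group in both KO libraries and below it in WT. Grouped by the GC content of the locus itself, the same 3 were again above the upper quartile in both KO libraries. The share of all genes with this pattern is not given. Among the strongest 60898 peaks of each list, Ptprc kept 1, 3 and 1 distal peaks in WT, 1 week and 5 weeks. Adgre1 kept 0, 2 and 1 there, and Csf1r 2, 2 and 1. Spi1, also at 44.3%, stood at 4.09, 2.73 and 5.45, between the median and the upper quartile of its group in each library. Grouped by the GC content of the locus, its WT value was below the group median of 4.39. Itgam, Cd3e and Cd68 were below the group median in all 3 libraries. The part of GC content and of list depth in these counts was not tested.

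**Figure D4:**
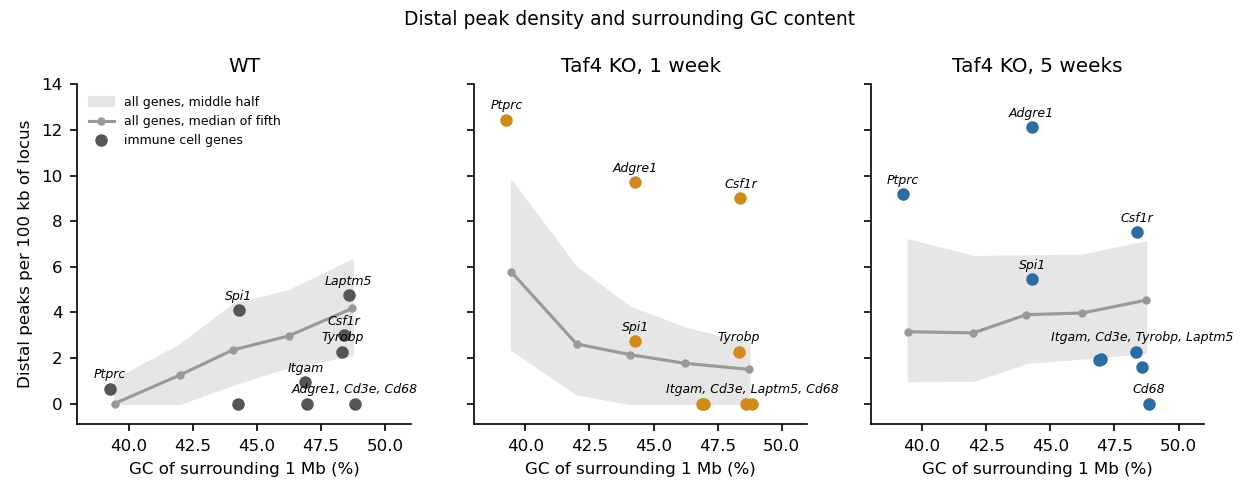
Distal peaks per 100 kb of locus against the GC content of the surrounding 1 Mb for the 9 genes (coloured points) in each library, with the median (line) and the middle 50% (grey) of all protein-coding genes in 5 equal groups by GC. Ptprc, Adgre1 and Csf1r lie above the grey band in both KO panels, and the other genes lie inside or below it.

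Motif letters were counted in the central 300 bases of the distal peaks, and most shares rest on a handful of peaks. There the full PU.1 letters were found in 0 of 11 (WT), 0 of 44 (1 week) and 0 of 48 (5 weeks) distal peaks of the 9 loci. Among all distal peaks they were in 2.04%, 1.88% and 2.08%. The core was in 1, 14 and 8 member peaks, or 9.09%, 31.8% and 16.7%, against 26.9%, 27.5% and 27.8% of all distal peaks. RUNX letters were in 2, 4 and 1 peaks (18.2%, 9.09% and 2.08%), against 2.04%, 2.11% and 2.08%. The Ptprc intron peak accounts for 1 of these in each list. AP-1 letters were in 2, 5 and 6 peaks (18.2%, 11.4% and 12.5%), against 13.8%, 10.1% and 10.3%. NeuroD E-boxes were in 2, 7 and 2 peaks (18.2%, 15.9% and 4.17%), against 11.5%, 8.01% and 9.06%. Homeodomain letters were in 0, 5 and 1 (0%, 11.4% and 2.08%), against 7.27%, 8.22% and 7.26%. Forkhead letters were in 1, 2 and 2 (9.09%, 4.55% and 4.17%), against 8.02%, 5.83% and 5.81%. CTCF letters were in 1 peak of each list (9.09%, 2.27% and 2.08%), against 3.07%, 0.795% and 1.90%. A match of letters is a description and not a bound site.

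A wider set of 107 leukocyte genes was counted in the same way. In WT 14 of them had a promoter peak, or 13.1% (7.96 to 20.8). At 1 week there were 10, or 9.35% (5.16 to 16.4), and at 5 weeks 31, or 29.0% (21.2 to 38.2). The brackets are 95% intervals by the Wilson method, which cover the counting of genes only. Relative to WT, 6 genes gained and 10 lost a promoter peak at 1 week, and 20 gained and 3 lost one at 5 weeks. Of the 107, 70 were in the CpG-poorest group of promoters, with 6, 4 and 15 called, or 8.57%, 5.71% and 21.4%, beside 11.2%, 18.7% and 21.6% for all genes of that group. The 5 week share was thus close to that of other CpG-poor promoters, and the 1 week share was below it. Among the strongest 60898 peaks of each list, 14, 4 and 13 of the 107 were called (13.1%, 3.74% and 12.1%). At that list length 59%, 48.8% and 59% of all protein-coding genes were called.

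By cell class, the genes shared by all leukocytes had a promoter peak in 4, 5 and 9 of 20, in WT, 1 week and 5 weeks. Ptpn6, the phosphatase SHP-1, was called in all lists at percentiles 92.8, 99.4 and 99.7, and so was Lcp1, the actin bundler L-plastin (62.1, 83.5 and 73.4), whose peak also overlaps the promoter of Lrrc63. Fermt3, an integrin activator, was called in WT and at 5 weeks (62.3 and 73.3), and the lymphoid transcription factor gene Ikzf1 (23.7 and 50.7) and the migration gene Dock2 (2.18 and 5.25) in both KO lists. Coro1a, an actin regulator, was called at 5 weeks only with fold 3.58, as were Cd48, Cd84 and Inpp5d at percentiles from 5.72 to 25.5. Was, an X-linked actin regulator, was called at 1 week only (percentile 26.7), in the library with the many X peaks.

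Myeloid genes had a promoter peak in 6, 4 and 10 of 32. The complement gene C1qa (85.4, 98.4 and 97.3) and the transcription factor gene Irf8 (10.6, 64.7 and 80.1) were called in all lists. C1qc and the antigen presentation genes H2-Ab1 and H2-Aa were called in WT and at 5 weeks, and Cd74, which encodes the invariant chain, in WT only. The macrophage receptor genes Mrc1 and Cd163 were called in both KO lists and not in WT, at percentiles 3.07 and 62.1 for Mrc1 and 31.2 and 50.3 for Cd163. The cytokine receptor gene Csf2rb was called at 5 weeks only (31.3). T and NK cell genes had 2, 1 and 3 of 25: Tcf7 in WT and at 5 weeks (22.3 and 13.9), Cd6 in WT, Ncr1 at 1 week, and Eomes (60.3) and Gzmb (10.7) at 5 weeks. B cell genes had 0, 0 and 3 of 11, namely Ms4a1, Ebf1 and Pou2af1 at 5 weeks. Genes of granulocytes, mast cells and dendritic cells had 2, 0 and 6 of 19. The dendritic cell genes Flt3 (18.5 and 66.1) and Zbtb46 (30.0 and 63.9) were called in WT and at 5 weeks, and S100a8, S100a9, Batf3 and Siglech at 5 weeks only, at percentiles from 27.2 to 41.8.

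Other lists were counted beside them, with all-gene shares of 59%, 55.9% and 65.6%. Endothelial genes had a promoter peak in 4, 6 and 10 of 13, stellate cell and fibroblast genes in 2, 5 and 7 of 12, and beta cell genes in 12, 11 and 11 of 12. Genes of tissues that islets should lack, such as skin, muscle and testis, had one in 1, 2 and 3 of 25. The called leukocyte promoters were also weaker than promoters in general. Their median percentiles were 47.9, 30.6 and 50.3, against 85.1, 87.7 and 89.7 for all called promoters and 64.8, 67.4 and 64.7 for those of the CpG-poorest group. The part of list length in the higher counts at 5 weeks was not tested beyond the counts at equal list length given above.

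**Figure D5:**
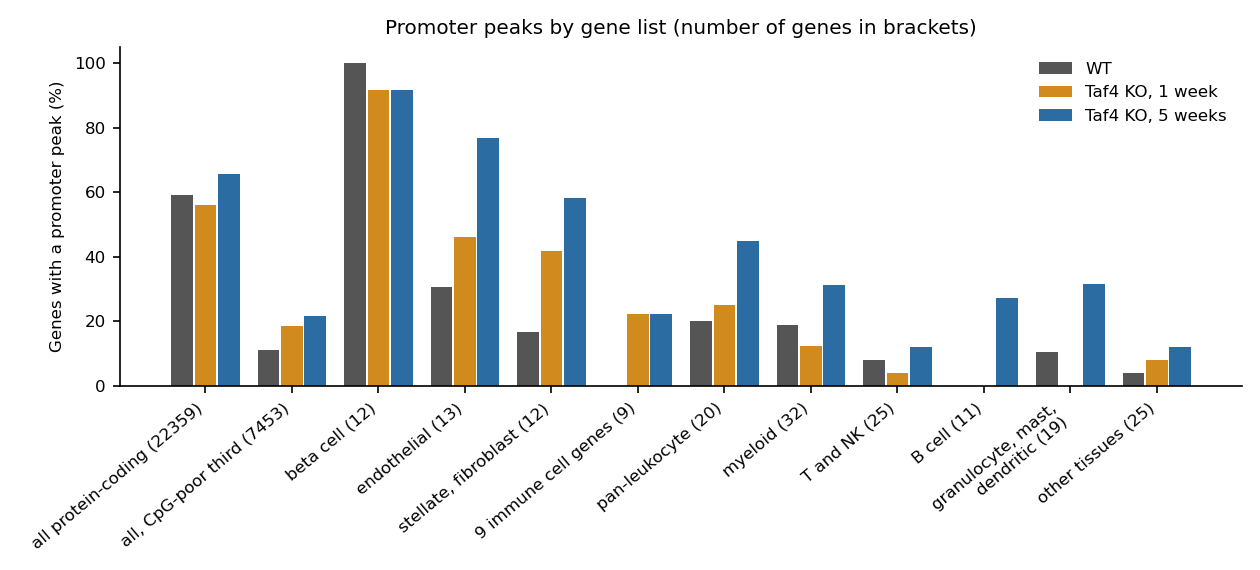
Share of genes with a promoter peak in each library for all protein-coding genes, the CpG-poorest group, beta cell, endothelial and stellate genes, the 9 immune cell genes, 5 further leukocyte classes and genes of other tissues, with the number of genes in brackets. The 9 genes go from 0 in WT to 2 of 9 in both KO libraries, and each of the 5 leukocyte classes is highest at 5 weeks. So are all protein-coding genes, the CpG-poorest group and the endothelial, stellate and other-tissue genes, while beta cell genes are highest in WT.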

How the data were processed

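ATAC-seq peaks were analysed for 3 islet cell libraries, 1 per group, with groups from the genotype and time labels. According to the study's methods and processing notes, the authors mapped reads to mm9 with Bowtie 1.0.0, keeping unique alignments, and called broad peaks per library with MACS2 2.1.1. No control library, duplicate removal or insertion shift is given in the sources used here. The deposited lists hold, per peak, the fold over local background as a ratio, a -log10 p, a -log10 q and a caller's score, of which the fold and -log10 q were used. Values belong to their own list, and read totals are not part of peak lists, so the depth is unknown.

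Genes and starts came from GENCODE vM1 on NCBIM37, the same build as mm9. Adgre1 and Spi1 are listed there as Emr1 and Sfpi1. Peaks were assigned from 1 bp of overlap. A distal peak was placed in an exon, an intron or between genes by its midpoint. Promoter calls were tested on simulated peaks in 200 genes, all 200 found, and checked against bedtools 2.31.1, with 0 differences. Sequences were read from the mm9 genome, and some promoter sequences and single-gene values are not reported here. Analyses used Python 3.11.15, pandas 2.3.3 and pysam 0.24.0.

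All 9 genes are named. In the wider lists, genes called in any library were named, at most 10 per class, those called in all libraries or with the highest percentile first. The members, lists and alternatives were chosen with earlier results of these data known. Alternatives were stricter q limits, lists of equal number or covered length, other promoter windows and starts, flanks of 5 and 50 kb, a midpoint rule and, chosen after seeing the data, the 9 loci without Ptprc and Adgre1 and the wider list under all transcript starts and the midpoint rule.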

Additional observations from a re-analysis of the deposited data

Results flagged for a closer look

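Some counts moved in opposite directions at 1 and 5 weeks relative to the same WT library, and with 1 library per group none of these differences was tested. Promoter peaks of the 107 further leukocyte genes numbered 14 (WT), 10 (1 week) and 31 (5 weeks), beside 59%, 55.9% and 65.6% of all protein-coding genes, which moved in the same directions. Distal peaks at Itgam numbered 1, 0 and 2 in the same order, and those at Spi1 3, 2 and 4. The ratio of the list length to that of WT was 2.47 for the 1 week list and 2.49 for the 5 week list.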

How the results depend on the processing

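Values are given as WT, 1 week and 5 weeks unless named. With a -log10 q of at least 3, distal peaks at the 9 loci numbered 7, 6 and 8, KO locus peaks 10 and 14, members with a promoter peak 0 in both KO lists, and the 107 leukocyte genes 7, 3 and 14. The difference from WT at 1 week turned to -1 for distal and -2 for locus peaks. With at least 5, distal peaks numbered 4, 3 and 7, locus peaks 9, 6 and 13, members 0 in both KO lists, and leukocyte genes 7, 2 and 8; at 1 week the differences turned to -1 and -3. With lists of equal number, KO distal peaks numbered 10 and 8, locus peaks 14 and 14, members 0 and 0, and leukocyte genes 4 and 13. The differences from WT turned to -1 and -3 for distal peaks, -3 and -3 for locus peaks and -1 for leukocyte genes at 5 weeks. With equal covered length they numbered 10 and 7, 14 and 13, 0 and 0, and 4 and 8, and the differences turned to -1 and -4, -3 and -4, and -6 for leukocyte genes at 5 weeks. The wide window (2500 bp upstream to 500 bp downstream) gave 26 and 21 leukocyte genes in WT and at 1 week. Flanks of 5 kb left 11 locus peaks in WT, and flanks of 50 kb gave 41, 79 and 102 locus and 26, 68 and 84 distal peaks. The midpoint rule left 1 member in each KO list and 6 and 20 leukocyte genes. For all protein-coding genes, the shares with a promoter peak were 53.8%, 44.9% and 59% at a -log10 q of at least 3. At a limit of 5 they were 48.6%, 33.5% and 54.4%. At equal number they were 59%, 48.8% and 59%, and at equal covered length 59%, 48.4% and 56.1%. The wide window gave 62.6%, 61.3% and 70.3%, and the midpoint rule 37.5%, 36.4% and 40.6%. Without Ptprc and Adgre1, KO distal peaks numbered 9 and 14. Fewer peaks or other intervals enter each count by construction; beyond that the cause was not tested. The other 38 values of the main counts stayed within 1.5 times.

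At equal list length neither KO list had more distal peaks than WT. At the strictest q limit, 5, the 5 week list had 3 more than WT. The lists at that limit were still of unequal length, with 24100 peaks in WT and 42492 at 5 weeks. The 0 promoter peaks in WT also held under the wide window and the starts of all transcripts, the alternatives that could have added a call. No paired analysis was possible because each group has 1 library. Leaving out a replicate was not possible for the same reason. Depth limits all counts: a closed promoter here means that no peak was called at this depth.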
